A study of Mus musculus with 2 samples.

Results

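Of the 28718 peaks in the GFP antibody list, 538 overlapped a peak of the SRCAP antibody list and lay at promoters of noncoding genes only. Each had its midpoint between 1000 bp upstream and 500 bp downstream of a transcription start site (TSS) of a gene that GENCODE vM21 does not class as protein-coding, and over 2500 bp from every TSS of a coding gene (GRCm38). An overlap of 1 bp was enough to call a peak shared, and 16138 GFP peaks, or 56.2%, were shared genome-wide. Under the same rule, 540 of the 28167 SRCAP peaks qualified.

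SRCAP was mapped by CUT&RUN, in which an antibody brings a nuclease to chromatin and the released fragments are sequenced, with 1 library for each of the 2 antibodies. The cells were SYAT mouse embryonic stem cells (mESCs), a CGR8 derivative whose Srcap alleles both carry YPet-AID at their 3′ end and which expresses OsTir1, so the GFP antibody recognises the YPet tag and the SRCAP antibody the protein itself. Both libraries share these alleles, and the line was maintained in auxinole, while the treatment of each library is not in its labels. The study's methods name the SRCAP antibody alone for CUT&RUN, and for the GFP library the assay is given by its title only. Without replicates or read counts there is no test between groups and the depth is unknown. The 95% intervals below (Wilson for percentages) cover counting error only, and with no expression values here neither the cell type nor transcription of these genes was checked.

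SRCAP is the catalytic subunit of the remodeller that places the histone variant H2A.Z in nucleosomes next to active promoters. Noncoding genes include long noncoding RNAs, which are transcribed by RNA polymerase II from promoters much like those of coding genes, pseudogenes, which are decayed copies of coding genes, and small RNAs. For many small RNAs the annotated start is the 5′ end of the mature or hairpin RNA and not the start of the primary transcript. TEC is GENCODE's class for loci whose transcripts still await experimental evidence.

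The following stretches, 100 bases each on GRCm38, show the sequence in GFP peaks that recur in the results below. They are written 5′ to 3′ along the strand of the noncoding gene, with the matched motif in capitals. Those at Platr12 and Mir1983 lie outside the SRCAP peak that overlaps the GFP peak. The first 4 were taken by rank or gene list, as described below. The last 2 were chosen after their values were seen. One has an NRF1 match near the start of an antisense gene. The other has a B box, an internal promoter element that some RNA polymerase III genes use.
2610005L07Rik, CTCF match, chr8:20424825-20424924, minus strand: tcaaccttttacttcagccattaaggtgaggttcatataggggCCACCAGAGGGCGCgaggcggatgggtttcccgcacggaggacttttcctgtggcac
Gm10060, YY1 match, chr8:19784697-19784796, plus strand: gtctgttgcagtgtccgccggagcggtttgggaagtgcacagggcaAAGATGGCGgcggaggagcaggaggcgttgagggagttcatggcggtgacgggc
Gm7461, NFY match, chr8:4678008-4678107, minus strand: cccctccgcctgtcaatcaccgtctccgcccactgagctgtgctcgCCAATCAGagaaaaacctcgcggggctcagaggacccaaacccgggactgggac
Platr12, ETS match, chr1:63200530-63200629, plus strand: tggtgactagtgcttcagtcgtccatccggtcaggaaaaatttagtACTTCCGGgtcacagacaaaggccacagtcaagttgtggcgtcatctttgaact
Kdm6bos, NRF1 match, chr11:69401446-69401545, plus strand: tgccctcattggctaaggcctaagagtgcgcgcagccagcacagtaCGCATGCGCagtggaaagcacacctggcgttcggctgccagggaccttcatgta
Mir1983, B box match, chr13:21896938-21897037, minus strand: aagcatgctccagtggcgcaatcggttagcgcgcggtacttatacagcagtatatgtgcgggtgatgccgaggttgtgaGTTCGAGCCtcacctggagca

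By their nearest TSS, 315 of the 538 peaks (58.6%) belonged to long noncoding RNA genes, 122 (22.7%) to pseudogenes, 57 (10.6%) to small RNA genes and 42 (7.81%) to TEC loci. The remaining 2 lay at the T cell receptor segments Trav3-3 and Trav7d-4. Most peaks stood at a single gene: 507 had 1 noncoding gene in reach, 24 had 2 and 7 had 3 or more, and 20 had noncoding TSSs on both strands. No gene had more than 2 of these peaks. Counted by name, 11 had 2, among them Rnu3b4, a name that 2 genes at 1 peak share.

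The limits of the rule cut through a continuous range. Of 1195 shared peaks in a noncoding window, 657 were left out because a coding TSS lay within 2500 bp. The peak nearest to that limit from inside was at Gm29824, 2569 bp from a coding TSS, with a GFP score of 41 and a SRCAP score of 107 (pairs of scores are given in this order from here on). The nearest from outside, at Gm21956, lay at 2476 bp and scored 40 in both. At the upstream limit, the farthest peak kept was 979 bp before the TSS of Gm11957 (scores of 42 and 29) and the first beyond it 1007 bp before that of Gm13413 (28 and 130). At the downstream limit, Gm24830 at 497 bp (103 and 135) was inside and a peak 501 bp from the start of Gm24950 (219 and 244) was outside.

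The absence of a coding promoter was also checked against RefSeq, a separate annotation of the same assembly. Of the 538 peaks, 38 (7.06%, 5.19 to 9.55) lay up to 2500 bp from the 5′ end of a RefSeq mRNA, 20 of them near a curated one, so these stood apart from coding promoters in GENCODE only. A wider count used RefSeq starts of mRNAs, long noncoding RNAs, snoRNAs, snRNAs, primary transcripts and untyped transcripts. Other types, such as tRNA and mature microRNA, were left out, and no share over all noncoding TSSs was computed. A transcript so counted began within 250 bp of 168 peaks (31.2%, 27.5 to 35.3). This held for 40.3% (35.0 to 45.8) of the peaks at long noncoding RNA genes, 24.6% (15.2 to 37.1) at small RNAs, 20.5% (14.3 to 28.5) at pseudogenes and 4.76% (1.32 to 15.8) at TEC loci.

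Few noncoding genes carried such a peak, and the share differed between gene types. Of 29089 noncoding genes with a TSS over 2500 bp from coding TSSs, 562, or 1.93%, had one. Long noncoding RNA genes stood highest among the classes, with 324 of 7846 (4.13%, 3.71 to 4.59), followed by TEC loci with 45 of 2721 (1.65%, 1.24 to 2.21), small RNA genes with 64 of 5050 (1.27%, 0.994 to 1.61) and pseudogenes with 127 of 12978 (0.979%, 0.823 to 1.16). The interval of the long noncoding RNA genes did not overlap any of the other 3. Within them, genes of the type processed transcript reached 9.32% (7.04 to 12.2, 45 of 483), above lincRNA genes at 3.97% (3.48 to 4.53) and antisense genes at 3.61% (2.82 to 4.61).

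Pseudogenes divided by whether the annotation marks them as transcribed. Of 527 marked so, 18 had a peak (3.42%, 2.17 to 5.33), a share whose interval overlapped that of the long noncoding RNA genes. Of 12128 not marked so, 106 did (0.874%, 0.723 to 1.06), and this interval lay below. Among small RNAs, snRNA, miRNA and snoRNA genes ranged from 1.03 to 1.53% with overlapping intervals. Of 323 genes that GENCODE types as rRNA, 0 had a peak (upper limit 1.18%). Gm42418, described below, counts as a lincRNA gene here, although RefSeq gives it as ribosomal RNA-related.

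**Figure D1:**
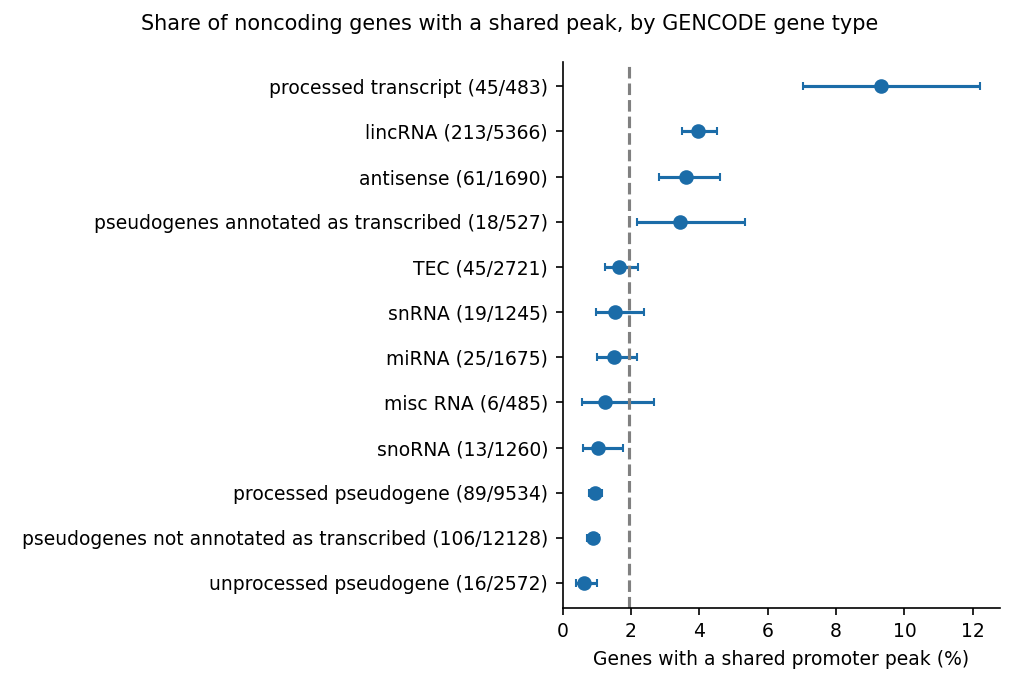
Percentage of noncoding genes of each GENCODE type that have a shared promoter peak (x axis), for types with at least 400 genes and for pseudogenes divided by annotated transcription, which regroups genes shown under their own types. Points are percentages, bars are 95% Wilson intervals, the counts are in brackets and the dashed line is the share over all noncoding genes (1.93%); processed transcript genes lie highest at 9.32%.

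Shared peaks were denser next to noncoding starts than elsewhere. The noncoding windows held 12.1 shared peaks per Mb, against 3.88 per Mb in the rest of the sequence over 2500 bp from coding TSSs, a 3.11-fold difference (2.85 to 3.38, exact Poisson interval of the count). The fold was 6.12 (5.46 to 6.83) at long noncoding RNA genes, 2.78 (2.02 to 3.73) at TEC loci, 2.23 (1.71 to 2.86) at small RNAs and 1.60 (1.33 to 1.91) at pseudogenes. All 4 intervals lay above 1, with a base rate taken over all remaining sequence, near genes or not.

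A second comparison used the flanks of the same TSSs as the base rate and a narrower zone at the start. Within 250 bp of long noncoding RNA TSSs, shared peaks were 8.61 times as frequent per kb as at 2501 to 5000 bp from the same TSSs (7.38 to 10.0). The ratio was 2.53 (1.54 to 4.17) for TEC loci and 2.25 (1.73 to 2.93) for pseudogenes, with overlapping intervals. For small RNAs it was 1.29 with an interval of 0.791 to 2.09, so a local rise at their annotated 5′ ends was not detectable with 18 peaks near and 140 in the flanks. A peak counts once for each TSS in reach here, and the intervals treat these as independent. Peaks up to 2500 bp from a coding TSS were left out, but flank sequence there stayed in the length. This lowers the flank rates and raises all of these ratios by an amount that was not measured.

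**Figure D2:**
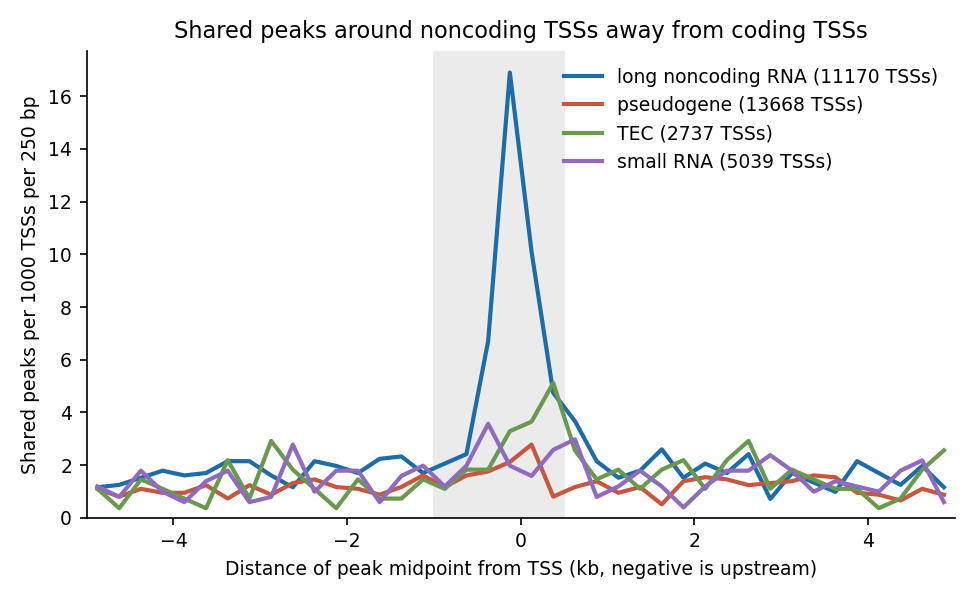
Shared peaks per 1000 TSSs in bins of 250 bp (y axis) against the distance of the peak midpoint from the TSS in kb (x axis, negative upstream), for noncoding TSSs over 2500 bp from coding TSSs. Peaks up to 2500 bp from a coding TSS are left out, but flank sequence there is counted, which lowers the flank values. Lines are gene classes and the grey band is the window of the rule; the long noncoding RNA line rises at the TSS, where peaks were 8.61 times as frequent per kb as at 2501 to 5000 bp, and the small RNA line shows a ratio of 1.29.

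The midpoints gathered around the TSS. The median distance to the nearest noncoding TSS was -95 bp, with quartiles of -356 and 92.8 bp, whereas the middle of the window lies at -250 bp. Downstream lay 36.2% (32.3 to 40.4), an interval that includes the 33.3% of the window on that side. Of all 538, 311 (57.8%, 53.6 to 61.9) lay within 250 bp of the TSS, a zone that makes up 33.4% of the window. The percentage was 68.6 (63.2 to 73.4) at long noncoding RNAs, 47.5 (38.9 to 56.3) at pseudogenes, 42.9 (29.1 to 57.8) at TEC loci and 29.8 (19.5 to 42.7) at small RNAs. The intervals for small RNAs and TEC loci include the 33.4% of an even spread over the window, whereas those for long noncoding RNAs and pseudogenes lie above it.

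At noncoding promoters 538 of 912 GFP peaks were shared (59.0%, 55.8 to 62.1), an interval that includes the 56.2% of all GFP peaks. This lay below coding promoters, where 68.8% (67.7 to 69.8) of 7683 peaks were shared, and above the 52.0% (51.3 to 52.8) of 16799 peaks over 2500 bp from every TSS. The order was the same from the SRCAP list, with 60.5% (57.3 to 63.7), 68.5% (67.4 to 69.5) and 53.6% (52.8 to 54.3). Among GFP peaks at or above the list's median score of 47, it was 75.9% (71.9 to 79.5), 84.3% (83.2 to 85.3) and 71.3% (70.3 to 72.3). Of all GFP peaks with such scores 75.2% (74.5 to 75.9) were shared, and the intervals of noncoding promoters and distal peaks overlapped. Below the median score they were separate, at 39.7% (35.1 to 44.4) and 33.2% (32.2 to 34.2), with coding promoters at 46.7% (45.0 to 48.5).

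The deposited score is the authors' own value per peak, of unstated meaning, and is compared here within lists. The median GFP score was 62 (quartiles 40.2 and 94.8), against 64 for shared peaks at coding promoters and 59 for those over 2500 bp from every TSS. The 374 GFP peaks at noncoding promoters without a SRCAP partner had a median of 35.5. Median widths followed the same order, at 373, 386, 358 and 239 bp. Shared peaks at noncoding and coding promoters were therefore close in score and width, while unshared ones were lower and narrower. Sharing was called on a 1 bp overlap, which a wider peak meets more easily. The contrast with unshared peaks is thus not independent of the rule.

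The SRCAP partners are overlapping peaks by the rule. Short distances between midpoints and a shared position are therefore largely fixed by the selection. Of the 538, 533 had 1 partner, the median distance between midpoints was 53 bp, and 522 partners (97.0%) met the position rule themselves. The median partner score was 58 (quartiles 40 and 90.8). Across the 538 pairs, which come from the same 2 libraries, Spearman's rho between scores was 0.510 and Pearson's r of log10 scores 0.671. In both lists 275 peaks (51.1%) were at or above the median score, while 108 ranked over 25 percentile points higher by GFP score and 81 by SRCAP score.

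**Figure D3:**
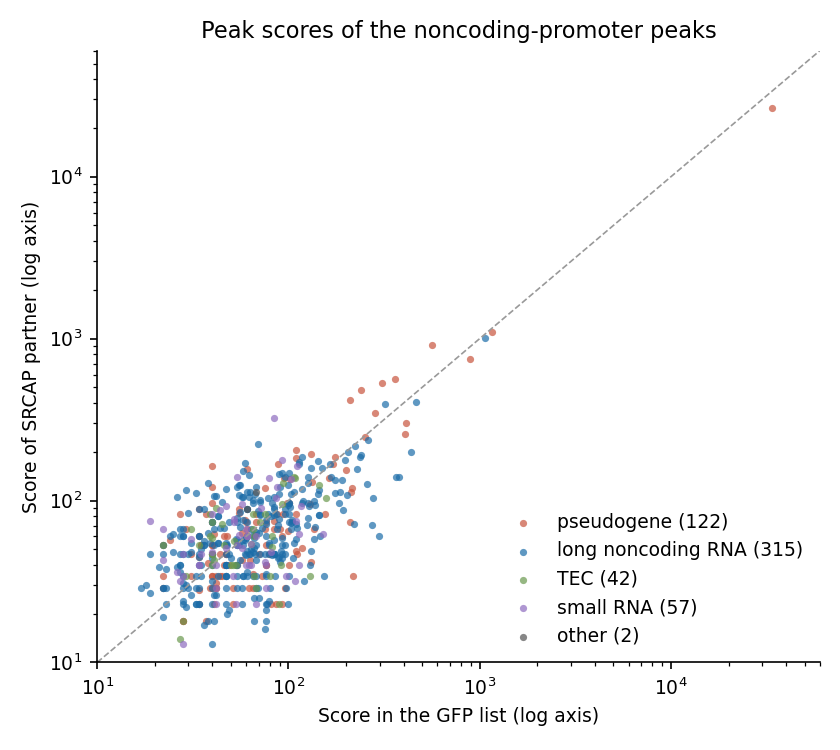
Score in the GFP list (x axis, log scale) against the score of the overlapping SRCAP peak (y axis, log scale) for the 538 peaks, coloured by gene class; the dashed line marks equal scores. Between the 5th and 95th percentile, GFP scores ran from 26.9 to 218 and SRCAP scores from 23 to 184, and the single point at the upper right is Gm28438, at 33600 and 26583.

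Ranked by the lower of the percentiles a peak reached in the 2 lists, the 12 highest were made up of 9 at pseudogenes and 3 at long noncoding RNA genes, and 4 of the 12 lay on chromosome 8. This ranking used the scores, so the values are a description. The highest, at chr1:24612483-24613397 over the unprocessed pseudogenes Gm28438, Gm10222 and Gm28439, scored 33600 with GFP and 26583 with SRCAP. Of the 885 sequences of 31 bases that start in it, 831 (93.9%) also occur in the mitochondrial genome. The only other peak of the 538 with any such sequence was at Gm13340 on chromosome 2, with 342 of 498 (68.7%) and scores of 75 and 67. Whether reads from mitochondrial DNA contributed to either peak was not tested.

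The next were Gm10060, a processed pseudogene on chromosome 8 with scores of 1161 and 1097, and Gm42418, annotated as a lincRNA on chromosome 17, with 1061 and 1006. RefSeq gives the Gm42418 locus as a ribosomal RNA-related sequence, and the peak, 1944 bp wide, spanned its annotated start. With Gm28438 these were the 3 peaks scoring over 1000 in both lists. Gm10060 is the one whose sequence is shown above with a YY1 match, 1 bp from its annotated start.

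Zfp640, a transcribed processed pseudogene on chromosome 13, scored 887 and 745 in a peak 89 bp upstream of its start. The transcribed unprocessed pseudogene 2610005L07Rik on chromosome 8 had both of its peaks among the 12, one of 566 and 919 that holds the CTCF match and one of 362 and 562. Both lincRNA genes left in this group, Gm5165 on chromosome 17 (467 and 406) and Gm26581 on chromosome 10 (318 and 392), had peaks upstream of their starts, by 9 and 293 bp. The processed pseudogenes Gm7807 (308 and 532), Zfp36l1-ps (411 and 301), Gm47325 (283 and 346) and Gm13169 (408 and 257) made up the rest, and Zfp36l1-ps, a copy of an mRNA decay factor gene, was the one on chromosome X.

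The highest-ranked peaks of the other classes scored lower. At TEC loci this was a peak within reach of the starts of Gm7461 and Gm6410 on chromosome 8 (145 and 124), shown above with its NFY match 307 bp downstream of the Gm7461 start. At small RNAs it was Gm27718 on chromosome 15 (111 and 163), 443 bp upstream of a misc_RNA whose nearest coding gene is Myc, at 119322 bp. At the T cell receptor segments it was Trav7d-4 (68 and 113).

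Genes linked to pluripotency made up the gene list with the most of these peaks. It held 37 noncoding genes with a TSS over 2500 bp from coding TSSs, the most of any list. Of these, 8 had one, beside 1.93% of all noncoding genes and 4.13% of long noncoding RNA genes. The other 29 had none, among them Lncenc1, Halr1 and the Mir290 cluster. The list was set with earlier results of these data known. All 8 were long noncoding RNA genes: Gm13110 and 7 of the Platr genes, named as pluripotency-associated transcripts.

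The 7 Platr peaks lay from 280 bp upstream to 2 bp downstream of their starts. Platr22 had the most central, at 2 bp, with scores of 86 and 82, and Platr11, which stands 71863 bp from the endoderm regulator Eomes, had 89 and 109. Platr4 had 89 and 45, and Platr9 had 85 and 47. The others were lower in both lists, with 57 and 29 at Platr12, 40 and 32 at Platr8, and 31 and 26 at Platr26. The ETS sequence above is in the GFP peak at Platr12, beyond the end of its SRCAP partner at chr1:63200339-63200514. Gm13110, with a peak 370 bp upstream of its start, scored 71 and 47.

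A further peak of this list lay upstream of the Mir302 cluster, whose microRNAs are abundant in pluripotent cells and lie within an intron of Larp7. The peak at chr3:127544646-127545210 scored 116 and 92, and its midpoint was 300 bp before the 5′ end of the Mir302b hairpin and 805 bp before that of Mir367. It lay 2609 bp from the nearest coding TSS, that of Larp7, while the hairpins themselves lie closer to one, so they are not among the 37 genes. The mature sequences from RefSeq (GRCm38.p6), with the seed (bases 2 to 8) in capitals, show what the cluster encodes.
mmu-miR-302b-3p: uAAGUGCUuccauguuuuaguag
mmu-miR-302d-3p: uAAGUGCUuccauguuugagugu
mmu-miR-302c-3p: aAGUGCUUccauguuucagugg
mmu-miR-367-3p: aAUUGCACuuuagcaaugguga
miR-302b-3p and miR-302d-3p share the seed AAGUGCU, miR-302c-3p carries it shifted by 1 base, and miR-367 has a different one. miR-302a-3p is the other member of this group.

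Imprinted noncoding genes had 2 peaks among 9 eligible genes, beside 1.93% of all noncoding genes and 4.13% of long noncoding RNA genes. Kcnq1ot1, the antisense RNA that silences genes of the Kcnq1 domain from the paternal chromosome, had a peak 79 bp upstream of its start with scores of 101 and 97. Rian, of the Dlk1-Dio3 domain, had one 965 bp upstream with 27 and 40. There the GFP peak ended at chr12:109631955 and the SRCAP peak began at 109631945, so they met at their edges only. H19, Meg3, Airn and 4 others had none.

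Of 6 X chromosome noncoding genes, 4933407K13Rik alone had a peak (34 and 29), and Xist, Tsix, Ftx, Jpx and Firre had none. Structural and catalytic RNA genes had 4 of 24: the signal recognition particle RNA gene Rn7s2 (52 and 77), the U3 gene Rnu3b4 (55 and 61), the spliceosomal U5 gene Rnu5g (19 and 75) and the vault RNA gene Vaultrc5 (22 and 43). Malat1, Neat1, Rn7sk and Terc were among those without. Beside these lists stand the 1.93% of all noncoding genes and the 1.27% of small RNA genes.

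A list set for widely expressed long noncoding RNA genes, whose expression was not checked here, had 2 of 20. They were Dancr (87 and 67), whose peak also stands 753 bp before Snora26, and Ptprv (27 and 36). Ptprv is listed by its GENCODE type, processed transcript. Its GFP peak began at chr1:135108842 and the SRCAP peak ended at 135108849, so they met at their edges only. Of 9 small nucleolar RNA host genes, Snhg17 (64 and 50) had one. Of 15 developmental long noncoding RNA genes, among them Hotair, Fendrr and Six3os1, 0 had one, and 2 genes of that list had a GFP peak without a SRCAP partner at their start. The share was 1.93% over all noncoding genes and 4.13% over long noncoding RNA genes. With lists of this size, single genes decide the shares of the lists.

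Among microRNA genes the positions varied. Mir1983 on chromosome 13 had a peak of 79 and 138 centred 39 bp before its start. RefSeq places the isoleucine tRNA gene n-TItat14 at chr13:21896938-21897031, inside the GFP peak, and the sequence above spans it. The SRCAP partner, at chr13:21897124-21897695, reached neither the tRNA gene nor that sequence. Counted by GFP peak, Mir1983 had the only one of the 538 over any of 403 nuclear RefSeq tRNA genes (0.186%, 0.0328 to 1.05). Of the 16138 shared peaks, 8 were over one (0.0496%, 0.0251 to 0.0978). Shared peaks as a whole thus covered few of the tRNA genes. Mir6347 (108 and 32) had a peak centred 3 bp before its start, Mir128-2 (86 and 103) 162 bp after, and Mir210 (57 and 95), a hypoxia-induced microRNA, 471 bp before; these 4 microRNA genes were chosen after their values were seen.

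By base composition the peaks stood between coding promoters and distal sites. In windows of 300 bp at the midpoint, median GC content was 52.0%, against 56.7% for shared peaks at coding promoters, 49.0% for those over 2500 bp from every TSS and 46.0% at all 33207 noncoding TSSs measured. The median observed over expected CpG ratio was 0.378, against 0.639, 0.226 and 0.206. With a ratio over 0.6 and GC over 50% called CpG-rich, 85 peaks qualified (15.80%, 12.96 to 19.12), against 51.1% (49.7 to 52.4), 3.88% (3.49 to 4.30) and 5.16% (4.93 to 5.40). The unshared GFP peaks at noncoding promoters had 12.3% (9.35 to 16.0), an interval that overlapped that of the shared ones.

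The CpG-rich peaks were 68.2% (57.7 to 77.2) within 250 bp of the TSS and the 453 others 55.8% (51.2 to 60.4), intervals that overlapped. Their median GFP scores were 62 and 63 and their partners' median scores 71 and 55. Long noncoding RNA genes made up 61.2% of the CpG-rich peaks and 58.1% of the others.

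**Figure D4:**
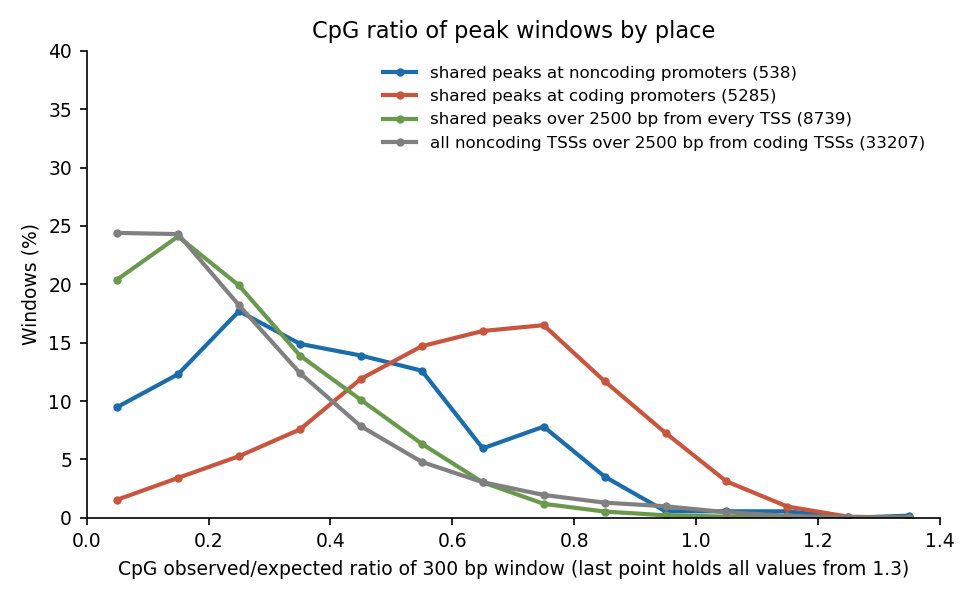
Percentage of 300 bp windows (y axis) by observed over expected CpG ratio in steps of 0.1 (x axis), for the 538 peaks, shared peaks at coding promoters, shared peaks over 2500 bp from every TSS and all noncoding TSSs. The noncoding-promoter line (median 0.378) lies between the coding-promoter line (0.639) and the distal line (0.226).

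Exact letters of 12 motifs were searched on both strands of the same windows, and no motif holds another whole. At least 1 was present in 107 windows (19.9%, 16.7 to 23.5), against 35.9% (34.6 to 37.2) at coding promoters, 17.6% (16.8 to 18.4) at distal sites and 13.32% (12.96 to 13.69) at all noncoding TSSs. A match is a description of letters and not of binding.

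NFY (CCAATNAG) was the most frequent, in 38 windows (7.06%, 5.19 to 9.55), below coding promoters (12.6%, 11.7 to 13.5) and above all noncoding TSSs (3.92%, 3.72 to 4.14). Its interval overlapped those of distal sites (5.01%, 4.57 to 5.49) and of unshared GFP peaks at noncoding promoters (5.35%, 3.49 to 8.12). SP/KLF (GGGGCGGGG) matched in 4.28% (2.87 to 6.33), between coding promoters at 11.8% (11.0 to 12.7) and distal sites at 1.50% (1.26 to 1.78). ETS (CCGGAAGT), at 1.12% (0.512 to 2.41), was below the 5.34% (4.76 to 5.97) of coding promoters. NRF1 (GCGCATGCG), at 0.558% (0.190 to 1.63), was below their 2.06% (1.71 to 2.48). For these 4 motifs the interval at noncoding promoters lay below that at coding promoters.

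The octamer (ATTTGCAT) that OCT factors recognise was in 19 windows (3.53%, 2.27 to 5.45), with an interval that overlapped those of distal sites (4.77%, 4.34 to 5.24), coding promoters (2.02%, 1.68 to 2.44) and all noncoding TSSs (2.85%, 2.68 to 3.04). CTCF was in 5 (0.929%, 0.398 to 2.16), above the 0.111% (0.0809 to 0.154) of noncoding TSSs and with an interval that overlapped those of distal sites (1.85%, 1.59 to 2.16) and coding promoters (0.511%, 0.351 to 0.742). Of the 5, 4 were at pseudogenes. YY1 (AANATGGCG) was in 9 (1.67%, 0.883 to 3.15) and the B box (GTTCGANNC) in 5 (0.929%, 0.398 to 2.16), both with intervals that overlapped all 3 references. NRF1 was in 3 windows, one of them at Kdm6bos, whose peak (62 and 144) lies 95 bp upstream of its start and inside Kdm6b, and ZNF143 (ACTACAATT) was in 0 (upper limit 0.709%). The letters of CRE (TGACGTCA), TATA (TATAAAAG) and ESRRB (TCAAGGTCA) were in 4, 3 and 2 windows.

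**Figure D5:**
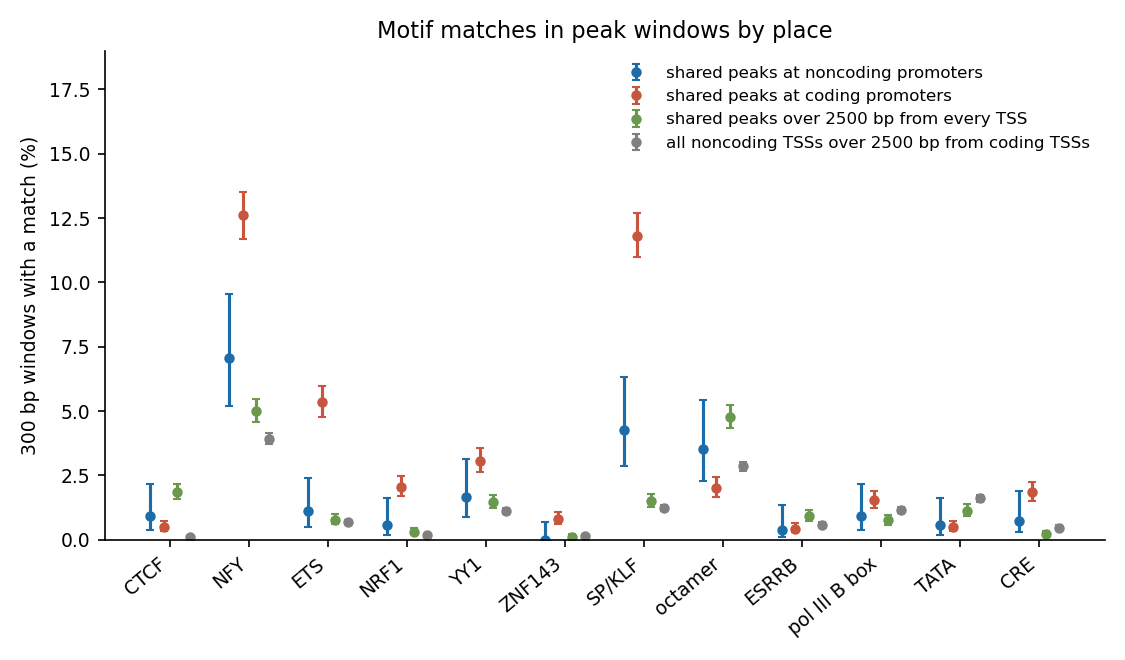
Percentage of 300 bp windows with at least 1 match (y axis) for the 12 motifs, in the 538 peaks, shared peaks at coding promoters, shared peaks over 2500 bp from every TSS and all noncoding TSSs; points are percentages and bars 95% Wilson intervals. NFY and SP/KLF lie lower in the 538 peaks (7.06 and 4.28%) than at coding promoters (12.6 and 11.8%).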

How the data were processed

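CUT&RUN peaks of SYAT mESCs were analysed as 1 deposited list per antibody, grouped by library title. The authors deposited, per peak, coordinates and a whole-number score of at least 13, whose meaning is not stated. The submitters' processing notes name STAR, Picard, MACS2, mm10 and dm6. The calling control, removal of blacklisted regions and treatment of reads that map to several places are not given for CUT&RUN in the sources used here, and they decide which repeated sequences are listed as peaks. The lists hold no read counts, so depth and its precision are unknown.

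Peaks were placed at their midpoint and joined to 141767 GENCODE vM21 transcripts in Python 3.11.15 (numpy 2.4.6, pandas 2.3.3, scipy 1.17.1, matplotlib 3.10.9). Overlaps were checked against bedtools 2.31.1, and selection and motif search were tested on simulated data. Sequence came from the RefSeq copy of GRCm38.p6. A peak took the class of its nearest noncoding TSS, while every gene within reach counted in gene percentages. Named genes were the 12 peaks of highest rank in both lists, the best of each class and all listed genes with a peak, and others are marked in the text. 1 sequence that this rule takes is not reported here. Members and gene lists were chosen with earlier results of these data known. Alternatives varied the overlap, score, gene class, window, coding distance, transcript set, base list and sequence window.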

Additional observations from a re-analysis of the deposited data

How the results depend on the processing

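No paired analysis was possible because there was a single library for either antibody. Of 51 values recomputed under an alternative, 38 stayed within 1.5 times the count or within the 95% interval first given. Only the median distance to the TSS could change sign, and it stayed negative. Restricting both lists to scores not under their median left 275 peaks at 292 noncoding genes with a median width of 431 bp. Long noncoding RNA genes alone left 319 peaks at 324 genes, a density 6.12-fold over the rest and a CTCF match in 0.313%. Asking for 50% reciprocal overlap lowered the shared percentage at noncoding promoters to 45.6%, and a window of 500 bp upstream to 250 bp downstream raised the density to 4.36-fold. In 500 bp windows 4 of the 11 other motifs moved, NFY to 10.0%, ETS to 2.42%, SP/KLF to 7.06% and octamer to 5.76%. The cause of these shifts was not tested. Leaving out peaks up to 2500 bp from a RefSeq mRNA start, chosen after the data were seen, left 500 peaks. Unknown depth, 1 library per antibody and the lack of a control antibody limit all values, and fewer than 20 peaks support each motif other than NFY and SP/KLF.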

Other observations

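The 538 peaks were unevenly spread over the genome. Chromosome 17 had 38.0 per 1000 noncoding genes, chromosome 8 had 34.3 (44 peaks) and chromosome 4 had 32.6, against 19.6 over the autosomes other than 8. Chromosome X had 4.42 (7 peaks of 1584 genes) and chromosome Y 0 of 1382. On chromosome 8, 1119 shared peaks in all lay over 2500 bp from coding TSSs, the most of any chromosome. Copy number, mappability and gene content were not tested.

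Some peaks stood close together. The bin from 65 to 66 Mb of chromosome 13 held 8, at Gm40987 (both of its peaks), Gm7768, Gm3829 and others, and that from 20 to 21 Mb of chromosome 8 held 8, at 2610005L07Rik, Gm21182, Gm7807, 6820431F20Rik and others. The bin from 145 to 146 Mb of chromosome 4 held 7. The chromosome 8 bin had 128 shared peaks over 2500 bp from coding TSSs, against 28 and 29 in the other 2.

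For 35 of the 538 peaks (6.51%, 4.71 to 8.91) the nearest coding gene was a Zfp gene, which encode zinc finger proteins, against 2.76% (2.43 to 3.12) of shared peaks over 2500 bp from every TSS and 2.21% (2.05 to 2.39) of the noncoding genes themselves. The share was 10.7% (6.33 to 17.4) at pseudogenes and 5.40% (3.40 to 8.47) at long noncoding RNAs. GFP peaks at noncoding promoters without a partner had 6.95% (4.79 to 9.99), an interval that overlapped that of the shared ones. This comparison was chosen after the values were seen, and neighbouring peaks share their nearest gene.

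The peaks stood a median of 26.1 kb from the nearest coding TSS (quartiles 10.4 and 63.6 kb), with 46 up to 5 kb away and 86 over 100 kb away. Within the body of a coding gene lay 112 (20.8%). In 73 of these the nearest noncoding gene was antisense to the coding gene, as Kdm6bos is to Kdm6b, and in 39 it was on the same strand.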
